A study of Homo sapiens with 29 samples.

Results

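The effect of the kinase inhibitor CC-115 on gene expression was compared between 2 human prostate cancer cell lines, C4-2 and 22Rv1. For each gene the difference was the log2 change of CC-115 over Ctrl in C4-2 minus the log2 change of CC-115 over Control in 22Rv1, so that a positive difference is higher in C4-2. The genes described are the 7678 that had at least 10 CPM (counts relative to library size, with sizes scaled by the trimmed mean of M values, TMM) in each untreated library of both lines. They were chosen from 22922 genes tested and 63677 features counted, and 7435 of them are protein coding. At the threshold, the lowest untreated value was 10.01 CPM for the last gene inside and 9.995 CPM for the first gene outside. Genes near 0 in an untreated line were kept apart and are described at the end.

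The whole study has 29 total RNA libraries, of which 11 enter this comparison. They are 3 C4-2 libraries of cells given CC-115 at 1 µM for 24 h, 3 C4-2 Ctrl libraries, 2 libraries of 22Rv1 cells given CC-115 at the same dose and time, and 3 Control libraries of 22Rv1 cells. The labels give Ctrl and Control no inhibitor and name no vehicle. Per the labels, both lines grew in medium with hormones. Each line is an established line grown in culture, and nothing in the labels says that the libraries of a group came from separate cultures, so the p-values measure the spread between these libraries, which may be technical. The lines stand in separate count tables, so that a difference between cell lines and a difference between experiments cannot be told apart. In RNA of a whole culture, fewer cells of a kind and less RNA per cell cannot be told apart either.

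CC-115 is known to inhibit both DNA-PK, the kinase that directs repair of broken DNA ends by end joining, and TOR, the kinase that couples nutrients to protein synthesis and growth. The C4-2 line descends from LNCaP cells and resists castration. 22Rv1 was derived from a xenograft that relapsed after castration.

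Total counts lay between 34941475 and 38555178 in C4-2 CC-115, between 34151988 and 36573872 in C4-2 Ctrl, at 44912917 and 31773580 in 22Rv1 CC-115, and between 31606952 and 43567190 in 22Rv1 Control. The libraries stood apart in base composition. Over the members, the log2 level of a gene moved per 10 points of its GC content by −0.54, −0.44 and −0.50 in the C4-2 CC-115 libraries and by −0.62, −0.53 and −0.51 in C4-2 Ctrl. In 22Rv1 the slope was 0.73 and 1.17 in the CC-115 libraries, against 0.33, 0.29 and 0.62 in Control. The small RNA 7SK took 3.43% to 5.31% of counts in C4-2 and 9.3% to 15.3% in 22Rv1. Each result below was therefore also computed with 2 adjustments for GC content chosen after the data were seen, and a difference is called held where both gave the same call. In CPM without TMM scaling, prostate luminal markers were at 10 CPM or more in at least 11 of 12 genes in every group, and 18 basal, stromal, immune and endothelial markers summed to 7.32 to 15.8 CPM. The 11 neuroendocrine markers summed to 5.27 to 6.56 CPM in C4-2 CC-115 and 5.3 to 6.21 CPM in C4-2 Ctrl, and to 191 to 227 CPM in 22Rv1 CC-115 and 244 to 261 CPM in 22Rv1 Control.

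CC-115 changed many members in both lines, and the lines often differed in size and at times in direction. By edgeR's quasi-likelihood test, with Benjamini-Hochberg adjustment over all genes tested and a call at an adjusted p under 0.05, 5346 members changed in C4-2 (69.6%, against 52.4% of all genes tested) and 5361 in 22Rv1 (69.8%, against 47.3%). In C4-2, 2008 rose and 3338 fell, against 25.8% and 26.6% of all genes tested, and in 22Rv1, 1915 rose and 3446 fell, against 23.5% and 23.7%. With a GC offset per library, over 7592 members, 3159 rose and 3020 fell in C4-2, and 2679 and 2789 in 22Rv1. With the GC slope as a covariate these were 2543 and 3879 in C4-2, and 1879 and 2583 in 22Rv1. Members were chosen by their untreated level, a rule that can favour falls. The difference between the lines was called for 3453 members (45.0%, against 27.5% of all genes tested). It was higher in C4-2 for 1574 of them (20.5%, against 12.3%) and lower for 1879 (24.5%, against 15.2%). With a size of at least 2-fold as well, 815 members differed (10.6%, against 11.7% of all genes tested), of which 426 were higher (5.55%, against 5.41%) and 389 lower in C4-2 (5.07%, against 6.28%). Without 22Rv1 CC-115 replicate 1, 2445 were higher and 1504 differed by at least 2-fold. A fit of all 29 libraries gave 1861 higher and 940 lower, and 433 and 532 members differed by at least 2-fold under the GC adjustments.

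Of the 3453 differences, 2128 (61.6%) were held under both GC adjustments, 956 of them higher and 1172 lower in C4-2. Leaving out each library in turn kept 2289 of the calls in every case, and 1884 kept theirs under all of these settings. The effects in the lines went together across the members, with a Pearson correlation of 0.62 over 7678 genes, and of 0.73 with a GC offset per library and 0.67 with the GC slope as a covariate. Genes are not independent replicates, and libraries and base composition are shared across them. The median member stood at −0.18 in C4-2 and −0.22 in 22Rv1, and its difference was 0.01, against −0.00 over all genes tested. With the GC offset the C4-2 and 22Rv1 medians were 0.01 and −0.02, and with the GC slope −0.15 and −0.09.

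Both lines agreed in direction for most members called in both. In all, 1096 members rose in both lines and 2299 fell in both, and for 1056 of these 3395 (31.1%) the sizes differed. Another 293 rose in C4-2 and fell in 22Rv1, and 230 fell in C4-2 and rose in 22Rv1. Of these 523, 132 went opposite ways under both GC adjustments too, with 78 that rose and 54 that fell in C4-2.

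**Figure D1:**
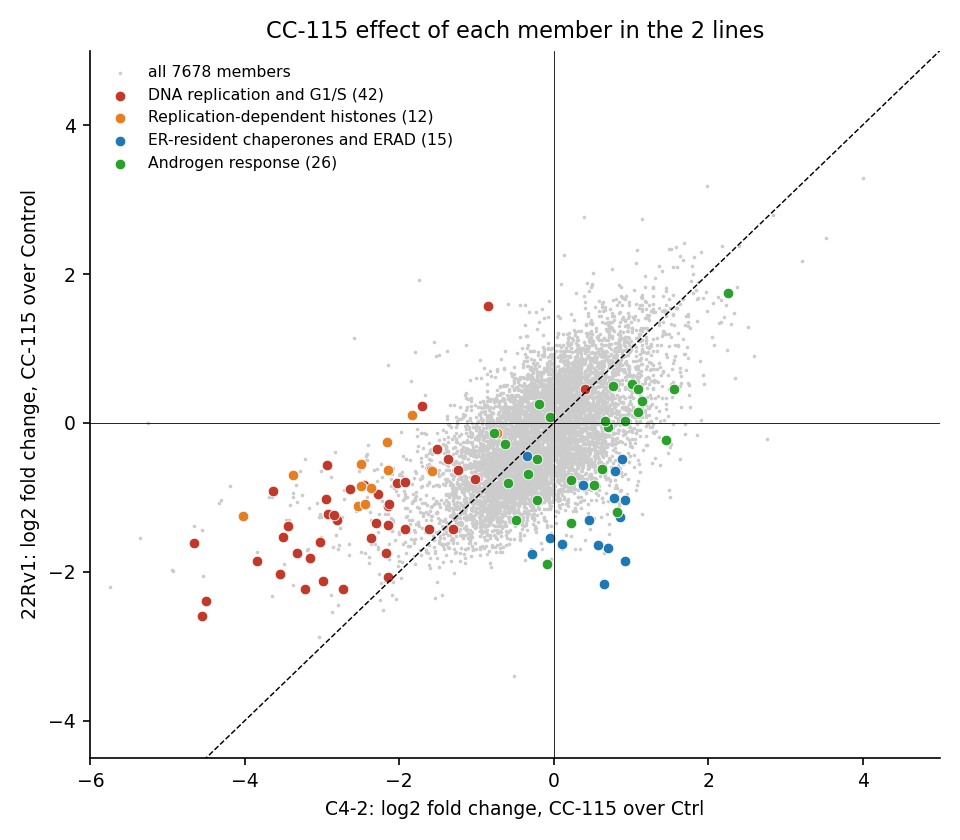
The log2 fold change of CC-115 over Ctrl in C4-2 (horizontal axis) is plotted against that of CC-115 over Control in 22Rv1 (vertical axis), with 1 point for each of the 7678 members and 4 gene lists in colour; the dashed line marks equal effects. Most replication and histone genes lie left of the line, with medians of −2.41 and −2.40 in C4-2 against −1.32 and −0.68 in 22Rv1, and most genes of the endoplasmic reticulum lie right of it, with medians of 0.65 in C4-2 and −1.31 in 22Rv1.

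Most genes that fold or clear proteins in the endoplasmic reticulum (ER), the compartment in which secreted and membrane proteins are made, moved in opposite directions in the lines. A list of heat shock and ER chaperones had 33 members. The difference was higher in C4-2 for 18 and lower for 2, beside 20.5% and 24.5% of all members, with a median of 0.70. Its median was 1.10 without 22Rv1 CC-115 replicate 1, 0.53 without 22Rv1 CC-115 replicate 2 and 0.25 with the GC slope as a covariate. After the values were seen the list was split by compartment, which allows description only. Of 15 members of the ER, 11 rose and 2 fell in C4-2 and all 15 fell in 22Rv1. The difference was higher in C4-2 for 14 of the 15, with a median of 1.77 and of 1.61 and 1.60 under the GC adjustments. Of 18 members of the cytosol, nucleus and mitochondria, 16 fell in C4-2 and 15 in 22Rv1, and the median difference was 0.20.

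HSPA5, which encodes BiP, the main Hsp70 chaperone of the ER and a sensor of unfolded proteins (chr9:127997132-128003609 of hg19), had 588.5, 573 and 543 CPM in C4-2 CC-115 against 283, 348 and 452 CPM in C4-2 Ctrl. The 22Rv1 libraries had 97.6 and 102 CPM with CC-115 against 403, 431 and 511 CPM in Control. The groups did not overlap in either line, and the 22Rv1 CC-115 libraries were the lowest of all 11. The change was 0.65 in C4-2 and −2.16 in 22Rv1, and the difference was 2.82 ± 0.22 (SE, adjusted p = 1.88e-06, edgeR).

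HSP90B1, the Hsp90 chaperone of the ER known as GRP94 (chr12:104323885-104347423), had 2725, 2495 and 2517 CPM in C4-2 CC-115 against 1436.5, 1286 and 1330.1 CPM in Ctrl. For 22Rv1 the values were 271 and 178 CPM with CC-115 against 826.5, 907 and 713 CPM in Control. Every CC-115 library was above every Ctrl library in C4-2 and below every Control library in 22Rv1. Its difference was 2.79 ± 0.20 (adjusted p = 1.13e-06, edgeR).

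PDIA4, a protein disulfide isomerase that helps to form the disulfide bonds of secreted proteins, had 922, 926 and 917 CPM in C4-2 CC-115 against 572, 563 and 569 CPM in Ctrl. Its values in 22Rv1 were 241 and 252 CPM with CC-115 against 776, 751 and 847.5 CPM in Control. Levels with CC-115 were thus high in C4-2 and low in 22Rv1 with little spread, and the difference was 2.38 ± 0.10 (adjusted p = 8.48e-09, edgeR). MANF, a secreted ER protein induced by unfolded proteins, differed by 2.21 ± 0.10, with changes of 0.57 in C4-2 and −1.64 in 22Rv1. SEL1L, the adaptor of the ubiquitin ligase that clears misfolded proteins from the ER, differed by 2.12 ± 0.19. The lectin chaperones CANX and CALR differed by 1.96 ± 0.17 and 1.22 ± 0.12, and the isomerase PDIA3, which works with them, by 1.77 ± 0.15.

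The remaining ER members moved alike in 22Rv1 but not in C4-2. CRELD2 (difference 1.79) and the clearance factors HERPUD1 (1.44) and EDEM1 (1.36) rose in C4-2 and fell in 22Rv1. SDF2L1 fell in both lines, by 0.28 in C4-2 and 1.76 in 22Rv1 on the log2 scale. DNAJB11 and PDIA6 stood at 0.11 and −0.05 in C4-2, neither called, and fell by 1.63 and 1.55 in 22Rv1. XBP1, the transcription factor that drives many of these genes after its mRNA is spliced, fell in both lines, at −0.35 in C4-2 and −0.44 in 22Rv1, and its difference of 0.09 ± 0.11 was not called (adjusted p = 0.597).

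Most cytosolic and mitochondrial chaperones fell in both lines. HSP90AA1, the inducible cytosolic Hsp90, changed by −0.81 in C4-2 and −1.93 in 22Rv1 (difference 1.12 ± 0.17). HSPA9, the Hsp70 of mitochondria, rose in C4-2 at 0.25 and fell in 22Rv1 at −1.18. The chaperonin subunits CCT2, CCT5 and TCP1 fell in both, and their differences of 0.10, 0.27 and 0.18 were not called, though CCT2 was called lower under the GC offset and slope (−0.27 and −0.34). HSF1, the transcription factor of the heat shock response, rose in both lines, at 0.43 in C4-2 and 1.88 in 22Rv1, with a difference of −1.45 ± 0.17 that was −0.90 with the GC offset.

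Promoters were searched because the ER genes moved together. The ER stress element, which the transcription factors ATF6 and XBP1 are known to bind, was read as CCAAT and, 9 bases later, CCACG on either strand, a motif chosen after the values were seen. RefSeq promoters (GRCh38.p14, from 250 bases before to 50 after the start of a gene, 300 bases) were matched by symbol for 6278 of the 7678 members. The element was in 0.0806% of 27305 promoters and in 12 of the 6278 member promoters (0.191%). It was in 9 of 1305 promoters of members with a higher difference (0.69%), in 1 of 1511 with a lower one (0.0662%), and in 6 of 31 of the chaperone list (19.4%), which are HSPA5, HSP90B1, CALR, CANX, CRELD2 and XBP1. Of the 12 members with the element, FICD (1.97), SERP1 (1.16) and TRIM5 (0.84) were also higher in C4-2 and held under both GC adjustments, while EIF2A (0.72) was not held, ALG12 (−0.03) was not called and TMEM120A (−0.52) was lower and not held. Windows of 3 of the genes described above are shown 5′ to 3′ on the strand of the gene. Both ends of each element are in capitals, CCAAT and CCACG or, on the other strand, CGTGG and ATTGG. The 9 bases between them are in lower case. They are HSPA5 (chr9:125241294-125241593, minus strand), HSP90B1 (chr12:103930160-103930459, plus strand) and CALR (chr19:12938359-12938658, plus strand).
HSPA5: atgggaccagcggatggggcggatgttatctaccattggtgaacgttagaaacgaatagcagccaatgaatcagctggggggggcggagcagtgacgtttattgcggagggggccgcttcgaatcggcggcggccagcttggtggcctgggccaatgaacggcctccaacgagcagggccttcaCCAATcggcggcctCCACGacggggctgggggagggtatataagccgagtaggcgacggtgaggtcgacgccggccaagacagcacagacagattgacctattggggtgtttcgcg
HSP90B1: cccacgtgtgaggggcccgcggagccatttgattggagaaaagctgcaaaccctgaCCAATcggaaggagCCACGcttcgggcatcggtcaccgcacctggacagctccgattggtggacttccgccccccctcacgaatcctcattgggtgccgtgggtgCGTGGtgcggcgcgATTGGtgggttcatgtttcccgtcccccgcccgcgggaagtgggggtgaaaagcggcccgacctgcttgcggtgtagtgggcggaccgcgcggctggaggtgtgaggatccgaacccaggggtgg
CALR: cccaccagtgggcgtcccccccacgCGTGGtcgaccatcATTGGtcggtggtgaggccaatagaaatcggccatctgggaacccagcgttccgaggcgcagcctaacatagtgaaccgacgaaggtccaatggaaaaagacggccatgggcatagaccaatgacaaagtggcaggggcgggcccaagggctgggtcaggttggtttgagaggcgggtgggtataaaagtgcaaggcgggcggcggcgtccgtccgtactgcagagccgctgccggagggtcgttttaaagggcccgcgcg
HSP90B1 held the element at 2 places, with first bases 194 and 89 bases before the start, HSPA5 at 1 place 66 bases before it and CALR at 1 place 225 bases before it. A match describes letters in this window and is not evidence of binding, and each element includes a CCAAT box, a motif of 35.7% of all promoters.

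**Figure D2:**
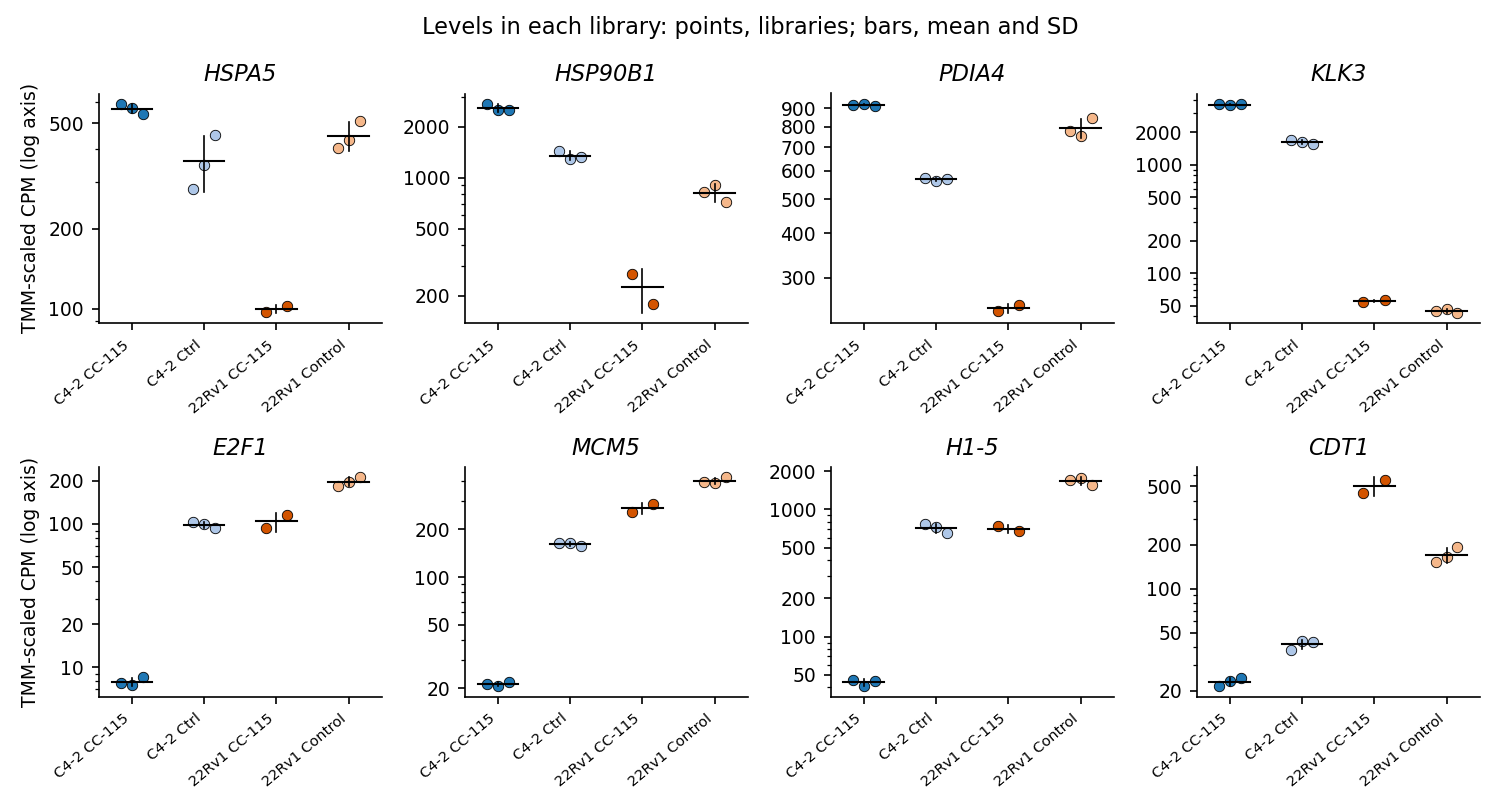
TMM-scaled CPM on a log axis is shown for 8 members in each of the 11 libraries, as points with the group mean and SD as bars. HSPA5, HSP90B1 and PDIA4 were high with CC-115 in C4-2 and low with it in 22Rv1, E2F1, MCM5 and H1-5 were lowest in the C4-2 CC-115 libraries, and CDT1 was lowest there and highest in 22Rv1 CC-115 (451.9 and 554 CPM).

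Genes of DNA replication fell in both lines with few exceptions, and most fell further in C4-2. Of 42 members of a list of replication and G1/S genes, 41 fell in C4-2 (median −2.41), and 39 fell and 2 rose in 22Rv1 (median −1.32). The difference was lower in C4-2 for 34 and higher for none, with a median of −1.27 and of −1.28 and −1.45 under the GC adjustments, and all 34 were held. Over all genes tested 15.2% had a lower difference.

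E2F1, a transcription factor that switches on genes for entry into S phase (chr20:32263489-32274210), had 7.74, 7.48 and 8.51 CPM in C4-2 CC-115 against 103, 99.8 and 93.5 CPM in Ctrl. In 22Rv1 the gene had 93.2 and 116 CPM with CC-115 against 183, 197.5 and 211 CPM in Control. Both lines had lower levels with CC-115 in every library, and the gap was far wider in C4-2. The difference was −2.72 ± 0.14 (adjusted p = 4.85e-08, edgeR), and its relative E2F2 had the lowest difference of the list, at −3.05 ± 0.18. E2F7, an E2F repressor that E2F1 is known to induce, differed by −1.77 ± 0.16, whereas E2F8 fell in both with no called difference, at −2.79 in C4-2 and −2.44 in 22Rv1 (adjusted p = 0.204, and −0.51 with adjusted p = 0.0408 with the GC offset).

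Licensing factors load the MCM helicase at origins before S phase. CDT1, which brings the helicase to the origin (chr16:88869621-88875666), had 21.5, 23.5 and 24.4 CPM in C4-2 CC-115 against 38.2, 43.7 and 42.8 CPM in Ctrl. Its values in 22Rv1 were 452 and 554 CPM with CC-115 against 152, 165 and 192.5 CPM in Control. It thus fell in C4-2 and rose in 22Rv1, the only gene of the list called in opposite directions, with a difference of −2.41 ± 0.16 (adjusted p = 2.86e-07, edgeR). ORC1, the largest subunit of the origin recognition complex, fell in C4-2 at −1.70 and stood at 0.23 in 22Rv1, not called. CDC6, the partner of CDT1, fell in both, at −2.99 in C4-2 and −2.12 in 22Rv1.

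The 6 subunits of the helicase itself did not move as one. MCM5 had the widest gap, at −2.93 in C4-2 and −0.57 in 22Rv1 (difference −2.36 ± 0.11, adjusted p = 1.5e-08, edgeR), followed by MCM3 (−1.94), MCM2 (−1.74), MCM4 (−1.58), MCM7 (−0.89) and MCM6 (−0.49). The call of MCM6 ended without C4-2 CC-115 replicate 2 or 3, C4-2 Ctrl replicate 3, 22Rv1 CC-115 replicate 1 or 22Rv1 Control replicate 2. MCM10, which helps to start the helicase, differed by −2.10, and of the GINS complex, which completes it, GINS2 differed by −2.06 and GINS4 by −0.82. CDC45 (−1.97), CLSPN, which links the fork to the checkpoint (−1.96), and DTL, which marks CDT1 for degradation (−1.98), fell in both lines and further in C4-2.

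Polymerase genes and nucleotide enzymes included the members without a called difference, of which several were called under both GC adjustments (39 of 42 lower and 1 higher under each). POLA1, the catalytic subunit of polymerase alpha, changed by −1.31 in C4-2 and −1.43 in 22Rv1, and POLE, that of polymerase epsilon, rose in both lines, at 0.40 in C4-2 and 0.46 in 22Rv1. RRM1, the large subunit of ribonucleotide reductase, fell at −1.61 in C4-2 and −1.43 in 22Rv1 with no called difference, and differed by −0.53 and −0.52, both called, under the GC adjustments. RRM2, the regulated subunit of the same enzyme, fell further in C4-2 (−1.52 ± 0.15), as did thymidine kinase TK1 (−1.50 ± 0.12) and PCNA, the clamp that holds polymerases on DNA (−3.22 in C4-2 and −2.23 in 22Rv1). The calls of LIG1, RFC3, POLE2 and PRIM1 also missed the threshold, with differences between −0.62 and −0.26. Under the GC offset and slope RFC3 (−0.91 and −1.31), POLE2 (−1.02 and −1.32) and PRIM1 (−1.13 and −1.26) were called lower and POLE (0.26 and 0.32) higher, and POLA1 and LIG1 were not called.

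The E2F motif was searched as TTTCCCGC, TTTGGCGC or TTTCGCGC on either strand in the same windows. It was in 2.79% of all 27305 promoters, in 5.5% of member promoters and in 22 of 38 of the replication list (57.9%). Among members at least 2-fold different and held under both GC adjustments, it was in 34 of 288 lower in C4-2 (11.8%) and 14 of 291 higher in C4-2 (4.81%). The 34 include genes of the replication list, such as E2F1, CDT1 and MCM2, so their share is not separate from that of the list. Windows of 3 genes at different steps are shown with the motif in capitals: E2F1 (chr20:33686336-33686635, minus strand), CDT1 (chr16:88803539-88803838, plus strand) and MCM2 (chr3:127598161-127598460, plus strand).
E2F1: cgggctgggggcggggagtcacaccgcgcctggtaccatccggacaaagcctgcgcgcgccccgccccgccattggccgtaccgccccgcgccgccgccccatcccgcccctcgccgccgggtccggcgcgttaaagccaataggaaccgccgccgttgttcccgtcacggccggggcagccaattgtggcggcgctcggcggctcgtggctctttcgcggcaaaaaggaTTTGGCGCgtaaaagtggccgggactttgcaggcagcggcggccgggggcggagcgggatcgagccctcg
CDT1: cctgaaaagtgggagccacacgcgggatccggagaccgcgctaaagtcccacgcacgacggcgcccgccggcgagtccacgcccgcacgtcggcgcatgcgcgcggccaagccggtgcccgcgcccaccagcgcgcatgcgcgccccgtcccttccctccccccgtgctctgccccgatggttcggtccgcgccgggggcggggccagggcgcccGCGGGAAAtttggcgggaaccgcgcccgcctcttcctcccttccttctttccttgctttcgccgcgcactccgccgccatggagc
MCM2: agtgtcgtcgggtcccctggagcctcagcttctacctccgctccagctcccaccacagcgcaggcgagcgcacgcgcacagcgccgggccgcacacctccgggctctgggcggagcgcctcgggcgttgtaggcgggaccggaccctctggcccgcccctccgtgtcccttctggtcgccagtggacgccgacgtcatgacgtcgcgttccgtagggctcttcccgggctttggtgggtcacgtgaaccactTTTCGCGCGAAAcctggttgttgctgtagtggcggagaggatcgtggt
CDT1 shares the motif with E2F1 and MCM2 and, with POLE, was 1 of the 2 genes of the list that rose in 22Rv1. POLA1, POLE, POLE2, LIG1 and RFC3 also held the motif, and their differences were not called without a GC adjustment. In MCM2 the 2 matches overlap.

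Replication-dependent histone genes, which supply the proteins that package new DNA, followed the same order. All 12 members fell in C4-2 (median −2.40) and 10 fell in 22Rv1 (median −0.68), and the difference was lower in C4-2 for all 12, held under both GC adjustments. H1-5, a linker histone (chr6:27834570-27835359), had 45.9, 40.8 and 44.5 CPM in C4-2 CC-115 against 769, 721 and 649.5 CPM in Ctrl. In 22Rv1 it had 736 and 672 CPM with CC-115 against 1707, 1765 and 1558 CPM in Control. The groups were apart in both lines, and the difference was −2.78 ± 0.12 (adjusted p = 1.4e-08, edgeR).

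Among core histones, H2AC11 differed by −2.67 ± 0.12 and H2BC21 by −1.92 ± 0.11, and H2AC20 stood at 0.10 in 22Rv1, not called, with a fall in C4-2 at −1.84. Outside the list, H3C13 (−3.26 ± 0.11), H2BC11 (−3.26 ± 0.16) and H2AC13 (−2.70 ± 0.15) were among the 12 lowest differences of all protein-coding members. H2AX, the variant whose phosphorylation marks DNA breaks, differed by −1.49 ± 0.13. Histone genes share near-identical copies, so that the split of reads between them is uncertain. Replication-dependent histone mRNA mostly lacks a poly(A) tail, and these libraries were made from total RNA.

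Repair and mitosis genes mostly fell in both lines, and some fell further in C4-2. Of 17 members of homologous recombination and Fanconi repair, all 17 fell in C4-2 (median −1.80), 15 fell and 1 rose in 22Rv1 (median −1.30), and the difference was lower for 8, all held, and for 14 with the GC offset. Its median of −0.65 was −0.29 without 22Rv1 CC-115 replicate 1 and −0.43 without 22Rv1 Control replicate 3. Among all members 24.5% had a lower difference. FANCG, a subunit of the Fanconi core complex, was the gene that rose in 22Rv1. It had 23.6, 23.9 and 24.7 CPM in C4-2 CC-115 against 64.5, 63.2 and 59.7 CPM in Ctrl, and 189 and 233 CPM in 22Rv1 CC-115 against 107.5, 105 and 112 CPM in Control (difference −2.34 ± 0.13, adjusted p = 6.19e-08, edgeR). RAD54L, a motor of strand exchange, and the nuclease EXO1 differed by −1.42 ± 0.18 and −1.18 ± 0.18, while BRCA1 (−0.23, and −0.63 and −0.73, both called, under the GC adjustments), FANCD2 (0.17) and BLM (0.63) were not called.

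Of 33 mitosis and G2/M genes, 32 fell in C4-2 and 30 in 22Rv1, with medians of −1.20 and −0.91. The difference was higher for 4 and lower for 10 (median −0.22), and 1 and 20 with the GC offset, under which 16.3% of all genes tested were higher and 17.1% lower. Without 22Rv1 CC-115 replicate 1 it was higher for 9, and with all 29 libraries lower for 5. Without GC adjustment 20.5% of all members were higher and 24.5% lower. CDC25B, a phosphatase that activates CDK1, fell in C4-2 at −0.69 and rose in 22Rv1 at 0.39. Its change in 22Rv1 was 0.1 with the GC offset and 0.0 with the slope, neither called. The kinase AURKB (−1.01), the kinesin KIF20A (−0.95) and the transcription factor FOXM1 (−0.86) fell further in C4-2. TOP2A, the topoisomerase that untangles replicated DNA, fell in 22Rv1 at −1.40 and stood at −0.09 in C4-2, not called (difference 1.30 ± 0.29, 0.47 with the GC slope). The cell cycle homology motif TTTGAA was in 18 of 27 promoters of this list (66.7%), in 8.98% of member promoters and in 15.4% of all promoters.

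Among 20 G1 cyclins, CDKs and their inhibitors, 12 had a lower and 1 a higher difference (median −0.66), which includes E2F1, E2F2 and CCNE1 of the replication list. Those shares were 24.5% and 20.5% over all members. CDK4, the kinase of cyclin D, fell in C4-2 at −1.65 and stood at −0.15 in 22Rv1 (difference −1.50 ± 0.12). CCND1, its cyclin, fell in C4-2 at −1.29 and stood at −0.17 in 22Rv1 (difference −1.12 ± 0.10). CDK2 fell in both, at −2.77 in C4-2 and −1.41 in 22Rv1. The inhibitor CDKN1B rose in both, at 0.36 in C4-2 and 0.59 in 22Rv1, and CDKN1A fell in both, at −1.01 in C4-2 and −0.71 in 22Rv1, with no called difference for either, though CDKN1B was called lower under the GC offset and slope (−0.36 and −0.62).

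**Figure D3:**
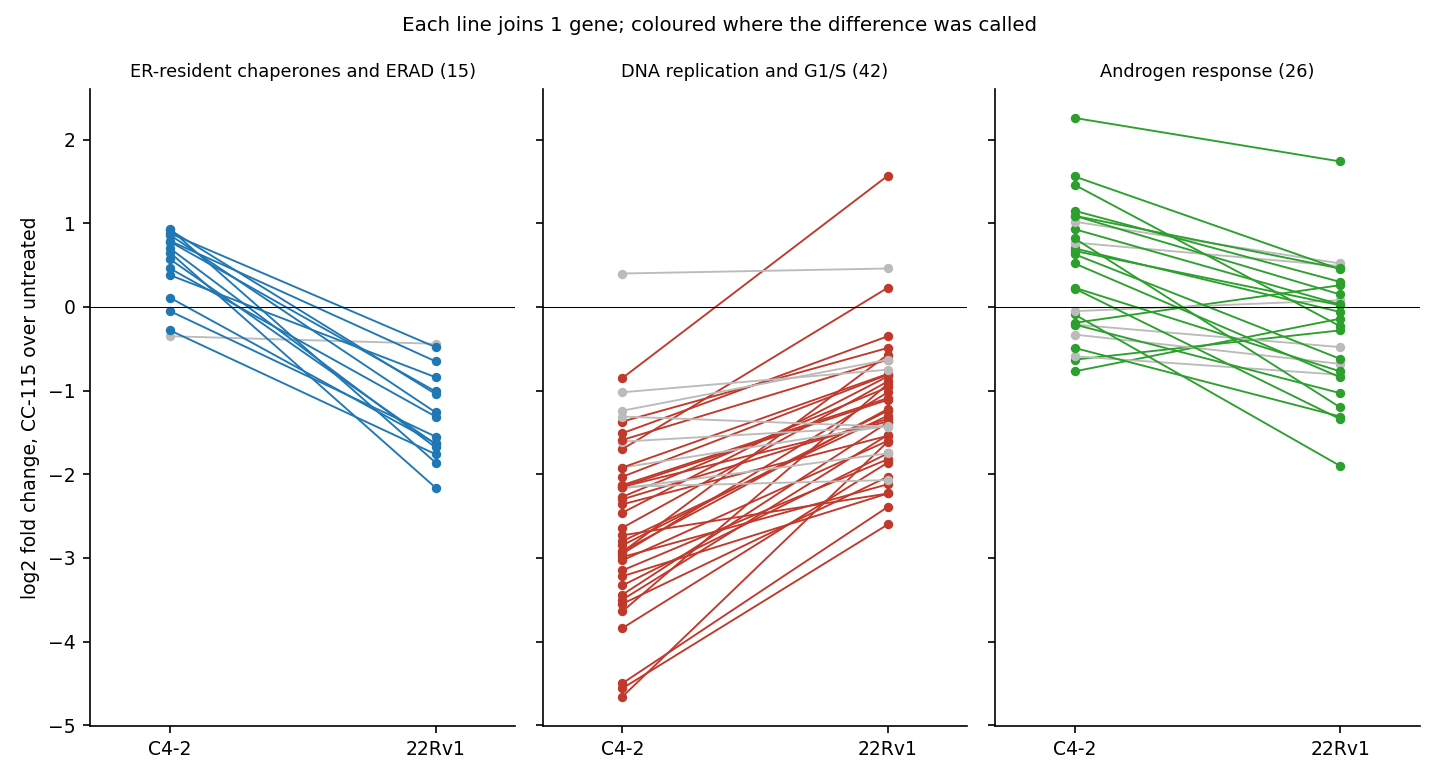
Log2 fold changes of CC-115 over the untreated libraries are joined for each gene between C4-2 (left) and 22Rv1 (right), in colour where the difference was called, for 15 ER genes, 42 replication genes and 26 androgen response genes. ER genes rose in C4-2 and fell in 22Rv1 for 11 of 15, replication genes sit lower in C4-2 for 41 of 42, and androgen response genes sit higher in C4-2 for 22 of 26.

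More than 1 in 2 androgen response genes rose with CC-115 in C4-2, and fewer rose than fell in 22Rv1. Of 26 members, 15 rose and 7 fell in C4-2 (median 0.57), and 6 rose and 12 fell in 22Rv1 (median −0.18). The difference was higher for 17, of which 15 were held, and lower for 3, of which none was held, with a median of 0.79. The luminal marker list overlaps this one, and of its 11 members 7 had a higher and 1 a lower difference (median 0.63). Among all members 20.5% were higher and 24.5% lower.

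KLK3, the gene of prostate-specific antigen, had 3609, 3537 and 3642 CPM in C4-2 CC-115 against 1700.0, 1621.5 and 1548 CPM in Ctrl. Its values in 22Rv1 were 54.3 and 56.5 CPM with CC-115 against 45, 46.5 and 43.2 CPM in Control. It rose in both lines from very different untreated levels, and the difference was 0.85 ± 0.09 (adjusted p = 2.79e-05, edgeR). TMPRSS2, a serine protease whose promoter responds to androgen, had 588.5, 597 and 613 CPM in C4-2 CC-115 against 211, 201.5 and 198 CPM in Ctrl. The 22Rv1 libraries had 39.8 and 43.4 CPM with CC-115 against 31.3, 29.6 and 30.3 CPM in Control. Here too every CC-115 library was above every untreated one in both lines, and the difference was 1.11 ± 0.10 (adjusted p = 6.57e-06, edgeR).

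The metalloreductase STEAP2 (2.02 ± 0.27) and the fatty acid ligase ACSL3 (1.36 ± 0.24) rose in C4-2 and fell in 22Rv1, and STEAP1 fell in 22Rv1 at −1.90 and stood at −0.09 in C4-2.

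KLK2 rose in both lines, at 2.26 in C4-2 and 1.74 in 22Rv1, with a difference of 0.52 ± 0.09. KLK4 (0.51 ± 0.18, adjusted p = 0.0529) and SLC45A3 (0.28 ± 0.14, adjusted p = 0.168) were not called, and were called higher under both GC adjustments, at 0.95 and 0.68 with the offset. CHRNA2 (−0.64) and GNMT (−0.45) were among the 3 lower ones, at −0.23 and −0.01 with the GC offset. The call of CHRNA2 also ended without 22Rv1 CC-115 replicate 2, with adjusted p = 0.0855. That of GNMT ended without any library but C4-2 CC-115 replicate 3, C4-2 Ctrl replicate 3, 22Rv1 CC-115 replicate 1 and 22Rv1 Control replicate 3 (adjusted p up to 0.165). HOXB13, a lineage factor on the luminal list, fell in C4-2 at −0.63 and rose in 22Rv1 at 0.27 (difference −0.90 ± 0.12). Its change in 22Rv1 was 0.02 with the GC offset and 0.01 with the slope, neither called.

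The targets of CC-115 and their pathways held differences in both directions. PRKDC, the catalytic subunit of DNA-PK, had 629, 619.6 and 622 CPM in C4-2 CC-115 against 929.9, 921 and 938 CPM in Ctrl. In 22Rv1 it had 217 and 194 CPM with CC-115 against 494, 496 and 552 CPM in Control. Its mRNA fell in both lines, and fell further in 22Rv1, with a difference of 0.75 ± 0.10 (adjusted p = 0.000177, edgeR). MTOR, the TOR kinase, rose in both, at 0.83 in C4-2 and 0.48 in 22Rv1, with a difference of 0.34 ± 0.12 (adjusted p = 0.0459). That call ended when any of 8 libraries was left out, with adjusted p up to 0.114 without C4-2 CC-115 replicate 3, and it did not end without C4-2 CC-115 replicate 1, 22Rv1 CC-115 replicate 2 or 22Rv1 Control replicate 2.

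Among 8 end joining genes the difference was higher for PRKDC and lower for POLL, a repair polymerase (−1.08 ± 0.16), and PAXX, an end joining factor (−0.74 ± 0.16, −0.17 with the GC offset). Their median of −0.34 was −0.15 without 22Rv1 CC-115 replicate 2 and 0.06 with the GC offset. Among all members 20.5% were higher and 24.5% lower. POLM rose in both lines, at 1.82 in C4-2 and 2.23 in 22Rv1.

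Of 26 TOR complex genes 4 had a higher and 6 a lower difference (median −0.05). Among 16 PI3K, AKT and S6 kinase genes 4 were higher and 3 lower (median −0.04). The shares were 12.3% higher and 15.2% lower over all genes tested, and 20.5% and 24.5% over all members. With the GC offset the balance of the TOR genes turned to 8 higher and 4 lower (median 0.05), and with the slope it was 5 and 5. The 6 lower TOR genes became 2 or 3 without C4-2 CC-115 replicate 1, 2 or 3, C4-2 Ctrl replicate 2, 22Rv1 CC-115 replicate 2 or 22Rv1 Control replicate 1 or 2. DDIT4, a stress-induced TOR inhibitor known as REDD1, fell in both, at −3.20 in C4-2 and −1.71 in 22Rv1 (difference −1.49 ± 0.17). FLCN, which acts on the Rag GTPases, rose in 22Rv1 at 0.90 and stood at −0.02 in C4-2. SESN2 and TSC1, restraints on TOR, differed by 0.70 ± 0.16 and 0.68 ± 0.13. INPP4B, a phosphoinositide phosphatase, rose in C4-2 at 1.44 and stood at −0.19 in 22Rv1 (difference 1.63 ± 0.21).

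Of 10 receptor feedback and FOXO targets, 9 rose in C4-2 and 5 in 22Rv1, and the difference was higher for 3 and lower for none. It was higher for 20.5% and lower for 24.5% of all members. ERBB2 rose in both, at 1.11 in C4-2 and 1.54 in 22Rv1, and FOXO3 at 0.91 in C4-2 and 1.10 in 22Rv1. IRS1, the docking protein of the insulin receptor, differed by 0.59 ± 0.17 (adjusted p = 0.0179, and 0.0532 without C4-2 CC-115 replicate 3).

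Damage kinases were split. ATM, the kinase that responds to double-strand breaks, rose in C4-2 at 1.45 and stood at −0.28 in 22Rv1 (difference 1.73 ± 0.28, 0.88 with the GC slope), and TP53BP1, which steers repair to end joining, rose in C4-2 at 1.21 and fell in 22Rv1 at −0.30 (difference 1.52 ± 0.12). Of 20 members of this list 4 had a higher and 7 a lower difference, beside 20.5% and 24.5% of all members. The 7 became 4 without C4-2 CC-115 replicate 3 or C4-2 Ctrl replicate 1, and 3 without 22Rv1 Control replicate 2. TELO2, a chaperone of these kinases, differed by −1.02 ± 0.23 (−0.34 with the GC slope). BAX, an inducer of cell death, fell in C4-2 at −0.66 and rose in 22Rv1 at 0.50. Its change in 22Rv1 was 0.14 with the GC offset and 0.22 with the slope, neither called. BTG2, an inhibitor of proliferation, had a lower difference (−1.23 ± 0.15). GDF15, a stress-induced cytokine, rose at 1.68 in C4-2 and 1.67 in 22Rv1 with no called difference, but was called higher under the GC offset and slope (0.48 and 0.37, adjusted p = 0.00202 and 0.0269). MDM2 was called only under them, as lower (−0.34 and −0.45), and CDKN1A under none.

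Amino acid supply genes under the transcription factor ATF4 often had a higher difference in C4-2, while ATF4 itself rose in both lines. ATF4 had 1744, 1687 and 1749.6 CPM in C4-2 CC-115 against 468, 444 and 406 CPM in Ctrl, and 2039.9 and 2330.4 CPM in 22Rv1 CC-115 against 643, 619 and 679 CPM in Control. Its rise was 1.97 in C4-2 and 1.76 in 22Rv1, with a difference of 0.22 ± 0.11 that was not called (adjusted p = 0.166). Under the GC offset and slope it was 0.52 and 0.37 and was called higher (adjusted p = 2.88e-05 and 0.0155). Of 27 members 14 had a higher difference, 12 of them held, and 3 a lower one (median 0.39, and 0.52 with the GC offset). Without C4-2 Ctrl replicate 2, 9 had a higher difference. In the main fit 20.5% of all members had a higher and 24.5% a lower difference. DDIT3, which encodes CHOP, rose in both, at 2.34 in C4-2 and 1.48 in 22Rv1 (difference 0.85 ± 0.15).

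SLC7A11, the cystine transporter, rose in C4-2 at 0.48 and fell in 22Rv1 at −1.03 (difference 1.50 ± 0.28, 0.74 with the GC slope). Asparagine synthetase ASNS (1.13 ± 0.17), the serine enzyme PSAT1 (0.81 ± 0.15) and the leucine transporter SLC7A5 (0.71 ± 0.19) fell in both lines, and further in 22Rv1. SLC38A2, an amino acid transporter, differed by 1.08 ± 0.35, a call that ended under the GC slope (−0.03) and with any library left out but 22Rv1 CC-115 replicate 1 and 22Rv1 Control replicate 3 (adjusted p up to 0.161). The motif TGATGNAA, bound by CHOP with ATF factors, was in 5 of 22 promoters of the list (22.7%) and in 3.67% of all promoters.

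Of 20 cytosolic tRNA synthetases, which charge tRNAs with amino acids, 10 had a higher and 2 a lower difference (median 0.37). Those shares were 20.5% and 24.5% over all members. EPRS1 fell in 22Rv1 at −1.51 and stood at 0.16 in C4-2 (difference 1.68 ± 0.16), and IARS1 (1.09 ± 0.15) and LARS1 (0.97 ± 0.18, 0.47 with the GC slope) did likewise. QARS1 (−0.72 ± 0.10) and FARSA (−0.68 ± 0.12, −0.19 with the GC offset) were lower in C4-2.

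Most sterol synthesis genes fell in 22Rv1. Of 24 members 11 fell in C4-2 and 16 in 22Rv1, and the difference was higher for 10 and lower for 4 (median 0.36). HMGCS1, which makes the precursor of mevalonate, fell in 22Rv1 at −1.69 and stood at −0.15 in C4-2 (difference 1.54 ± 0.18). SC5D rose in C4-2 at 0.69 and fell in 22Rv1 at −1.23 (difference 1.92 ± 0.41, 0.65 with the GC slope). EBP and ACAT2 fell in both and further in C4-2, by −0.88 ± 0.11 and −0.88 ± 0.16. Over all members 20.5% had a higher and 24.5% a lower difference. Among 13 fatty acid genes 4 were higher and 4 lower (median −0.14), against 7 and 4 with the GC offset (median 0.41) and 5 and 3 with the slope (0.19), with the elongase ELOVL6 at −0.77 ± 0.21 (adjusted p = 0.0149, and 0.0644 without 22Rv1 CC-115 replicate 1).

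Many glycolysis genes fell in both lines and further in C4-2. Of 25 members 18 fell in C4-2 and 13 in 22Rv1 (medians −0.80 and −0.39), and the difference was lower for 15, of which 10 were held, and higher for VEGFA only (0.46 ± 0.12). With all 29 libraries 9 were lower. Among all members 24.5% had a lower and 20.5% a higher difference in the main fit. GAPDH fell in C4-2 at −1.20 and stood at −0.15 in 22Rv1 (difference −1.05 ± 0.09), and TPI1 (−0.97 ± 0.10) and PKM (−0.87 ± 0.10) fell in both. PFKP, a phosphofructokinase, fell in C4-2 at −1.11 and rose in 22Rv1 at 0.32. Its change in 22Rv1 was 0.04 with the GC offset and 0.11 with the slope, neither called. LDHA and HK2 fell in both with no called difference, LDHA at −1.72 in C4-2 and −1.55 in 22Rv1. Both were called under the GC offset and slope, LDHA lower (−0.45 and −0.52) and HK2 higher (0.33 and 0.51). Of 33 nuclear genes of oxidative phosphorylation 30 fell in C4-2 and 26 in 22Rv1. Beside 24.5% and 20.5% of all members, 11 had a lower and 0 a higher difference (median −0.07, and −0.24 with the GC offset). Those counts were 2 and 1 with all 29 libraries, and 7 were higher without 22Rv1 CC-115 replicate 1.

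Ribosomal protein genes, whose mRNAs carry the motif through which TOR controls their translation, often had a lower difference in C4-2. Of 49 members, 6 rose and 7 fell in C4-2, and 26 rose and 4 fell in 22Rv1. The difference was lower for 23, of which 11 were held, and higher for 2, with a median of −0.28. With all 29 libraries in the fit 2 were lower. In the main fit 24.5% of all members were lower and 20.5% higher. RPSA fell in C4-2 at −0.39 and rose in 22Rv1 at 0.51, and RPLP0 and RPS2 rose in 22Rv1 at 0.73 and 0.67 and stood at −0.02 and −0.14 in C4-2. These genes have many near-identical processed copies, so their counts are uncertain.

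Among 33 translation factors 8 were higher (14 without 22Rv1 CC-115 replicate 1) and 3 lower (median 0.17, 0.37 without 22Rv1 CC-115 replicate 1 and 0.03 with the GC offset). Among all members 20.5% were higher and 24.5% lower. The balance of the translation factors turned with the GC slope, under which 5 were higher and 9 lower (median −0.13), and was 6 and 6 with the offset. EEF1D, an elongation factor subunit that rose in 22Rv1 at 1.20, had a difference of −1.15 ± 0.13. MYC rose in both, at 0.42 in C4-2 and 0.33 in 22Rv1. Of 38 MYC and ribosome biogenesis genes 8 were higher and 9 lower (median −0.00), near the shares of all members (20.5% and 24.5%). The 8 became 15 without 22Rv1 CC-115 replicate 1 and 5 without C4-2 CC-115 replicate 1, C4-2 Ctrl replicate 2, 22Rv1 CC-115 replicate 2 or 22Rv1 Control replicate 2. NOLC1, a nucleolar chaperone, fell further in 22Rv1 (difference 1.05 ± 0.13), and FBL, which methylates ribosomal RNA, fell in C4-2 at −0.68 and stood at −0.11 in 22Rv1.

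Splicing factor genes had higher differences in C4-2, of which many were lost under the GC adjustments. Of 29 SR and hnRNP genes 17 had a higher and 1 a lower difference (median 0.45), beside 20.5% and 24.5% of all members. Of these calls 8 and 0 were held, and the median was 0.17 and 0.19 under the GC adjustments. SRSF5 rose in C4-2 at 0.37 and fell in 22Rv1 at −0.74 (difference 1.11 ± 0.12), SRSF6 and TRA2A went the same ways (0.91 and 0.85), and CLK1, a kinase of SR proteins, rose in both, at 1.65 in C4-2 and 0.54 in 22Rv1.

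Of 34 lysosome and autophagy genes 4 were higher (12 with the GC offset) and 10 lower (5 without 22Rv1 CC-115 replicate 2), with a median of −0.13. Among all members 20.5% were higher and 24.5% lower. WIPI1, which marks forming autophagosomes, rose in both, at 1.75 in C4-2 and 0.51 in 22Rv1 (difference 1.24 ± 0.14). SQSTM1, the cargo receptor p62, rose in 22Rv1 at 1.19 and stood at 0.12 in C4-2 (difference −1.07 ± 0.15). Of 8 interferon response genes 4 were lower and 1 was higher. OAS3, an antiviral synthetase, fell in both, at −4.54 in C4-2 and −2.06 in 22Rv1 (difference −2.47 ± 0.17), and ISG15 fell in C4-2 at −1.38 and stood at 0.05 in 22Rv1. Of 10 Wnt genes 1 was higher and 2 were lower, and neither lower call was held. The shares were 12.3% and 15.2% over all genes tested, and 20.5% and 24.5% over all members. Under the GC offset and slope 3 and 4 were higher and 1 was lower.

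**Figure D4:**
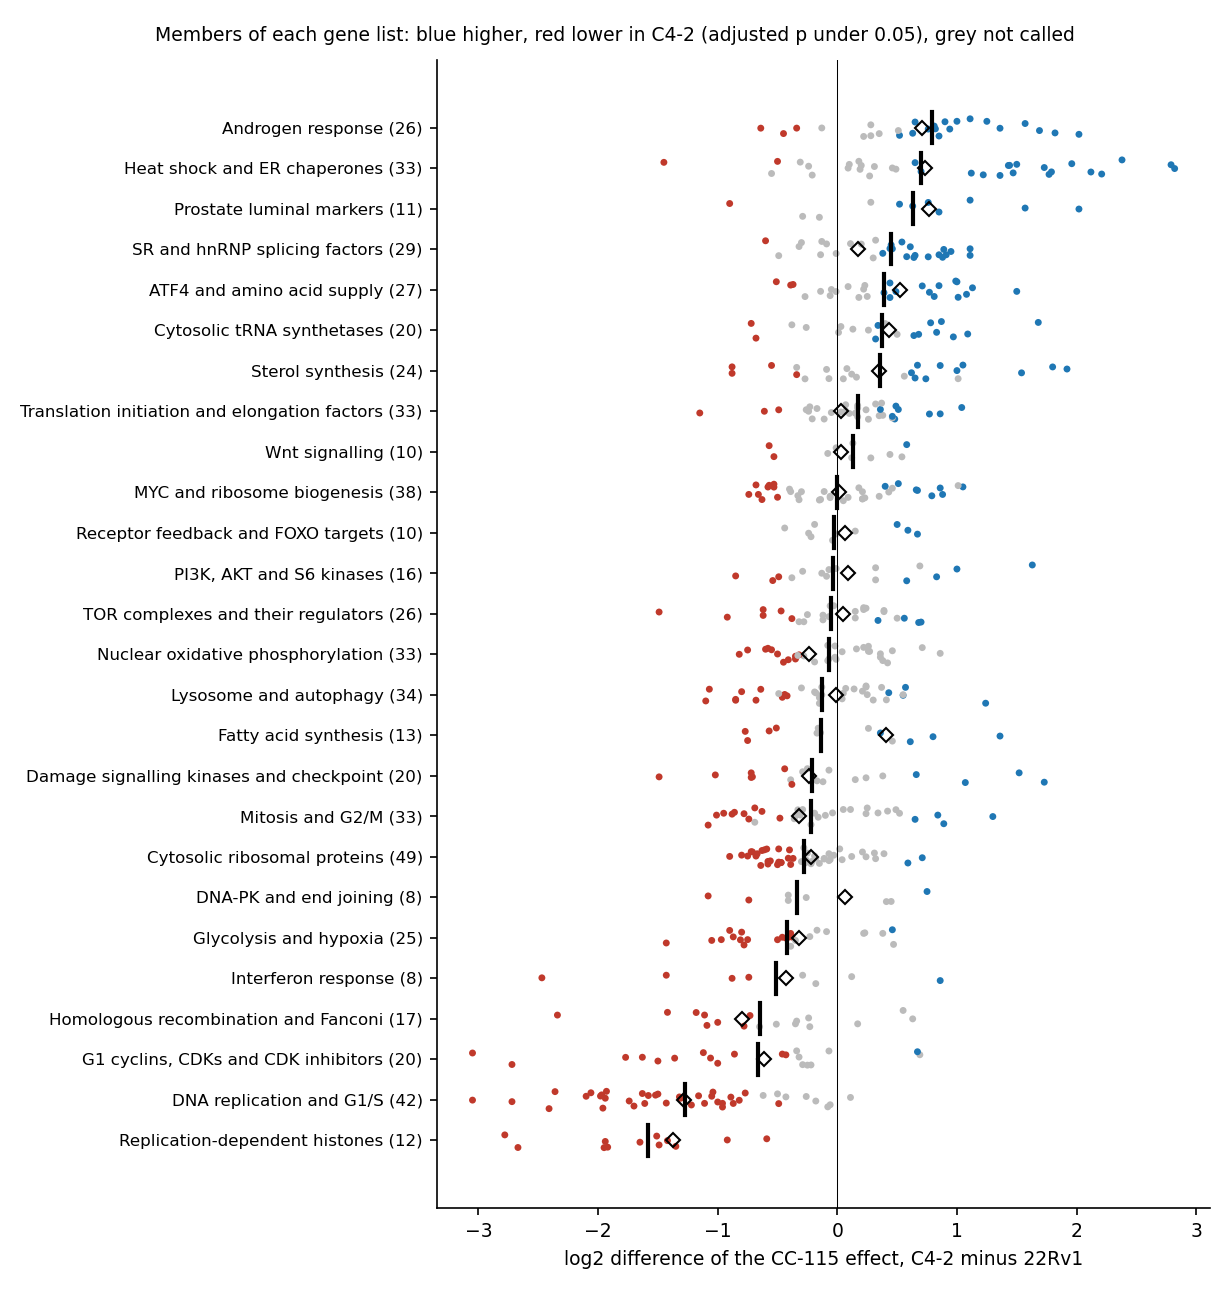
Each point is the log2 difference of the CC-115 effect, C4-2 minus 22Rv1, of 1 member of a gene list, blue where higher and red where lower in C4-2 and grey where not called; bars are medians and diamonds are medians with a GC offset per library. Lists run from androgen response at the top (median 0.79) to replication-dependent histones at the bottom (median −1.58).

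The widest differences of single genes lay partly outside the lists. APLN, the gene of the peptide hormone apelin (chrX:128779240-128788933), had 0.75, 0.664 and 0.544 CPM in C4-2 CC-115 against 24.4, 25.4 and 24.8 CPM in Ctrl. The 22Rv1 libraries had 1322 and 1533 CPM with CC-115 against 1365, 1385.5 and 1541 CPM in Control. It was nearly lost in C4-2, where the groups lay far apart, and was not called in 22Rv1 (adjusted p = 0.992), with the lowest difference of all protein-coding members, −5.25 ± 0.15 (adjusted p = 3.37e-10, edgeR).

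SLC22A3, an organic cation transporter, had 9.19, 9.34 and 8.62 CPM in C4-2 CC-115 against 52.9, 55.4 and 55.1 CPM in Ctrl. For 22Rv1 the values were 49.1 and 44.1 CPM with CC-115 against 22.2, 22.4 and 18.6 CPM in Control. It fell in C4-2 and rose in 22Rv1, with a difference of −3.73 ± 0.14 (adjusted p = 4.95e-09, edgeR). Carbonic anhydrase CA12 (−2.92 ± 0.14), the epithelial factor ELF3 (−2.41 ± 0.15) and the calcium channel subunit CACNB3 (−2.18 ± 0.17) went the same ways. FAM111B (−3.28 ± 0.40) and ZNF367 (−2.65 ± 0.18) fell in both and further in C4-2.

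On the other side, TSPYL2, a nucleosome assembly family protein (chrX:53111549-53117722), had 121, 128 and 128 CPM in C4-2 CC-115 against 18.1, 18.5 and 18.9 CPM in Ctrl. Its values in 22Rv1 were 62.1 and 58.8 CPM with CC-115 against 69.6, 69 and 72.3 CPM in Control. It rose in C4-2 and fell slightly in 22Rv1, with the highest difference of all protein-coding members, 2.98 ± 0.11 (adjusted p = 4.95e-09, edgeR). DDC, which makes dopamine and serotonin, fell in both, at −0.51 in C4-2 and −3.40 in 22Rv1 (difference 2.89 ± 0.21).

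SEC24D, a coat protein that selects cargo leaving the ER, had 108, 109 and 111 CPM in C4-2 CC-115 against 39, 37.2 and 39.7 CPM in Ctrl, and 11 and 10.1 CPM in 22Rv1 CC-115 against 20.4, 20.1 and 22.7 CPM in Control. It rose in C4-2 and fell in 22Rv1 (difference 2.49 ± 0.13). NIBAN1, a stress-induced regulator of translation (2.41 ± 0.14), SMIM14, a small membrane protein of the ER (2.39 ± 0.26), the ER reductase DNAJC10 (2.36 ± 0.34), the signal peptidase subunit SEC11C (2.15 ± 0.17) and the adhesion molecule NCAM2 (2.21 ± 0.21) went the same ways. Of the 12 highest members, 8 act in or at the ER, a count made after the values were seen. The share of such genes among all members was not counted, so the 8 describe these 12 genes only.

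Other genes moved the same way in both lines, with no called difference before GC adjustment. SAT1, which breaks down polyamines, rose at 2.84 in C4-2 and 2.79 in 22Rv1, and BRD2, a bromodomain protein, at 1.87 in C4-2 and 1.89 in 22Rv1. CCNB1IP1 (2.05 in C4-2 and 2.06 in 22Rv1), LETMD1 (1.80 in C4-2 and 2.00 in 22Rv1) and MYL5 (1.79 in C4-2 and 2.11 in 22Rv1) rose too. TFRC, the transferrin receptor that takes up iron, had 118, 109 and 112 CPM in C4-2 CC-115 against 1005, 894 and 881 CPM in Ctrl, and 80.9 and 47.4 CPM in 22Rv1 CC-115 against 525, 476 and 404 CPM in Control. It fell in both, at −3.04 in C4-2 and −2.87 in 22Rv1, with a difference of −0.17 ± 0.23 (adjusted p = 0.635) that was −0.62 with the GC offset. PIK3R3 (−2.24 in C4-2 and −2.15 in 22Rv1), PRKAR2B (−2.87 in C4-2 and −2.54 in 22Rv1) and SHCBP1 (−2.21 in C4-2 and −2.52 in 22Rv1) fell with no called difference. Under the GC offset and slope the difference of PRKAR2B was −0.85 and −1.39 and that of LETMD1 −0.26 and −0.39, both called, and TFRC was called too. With the offset alone SAT1, BRD2, CCNB1IP1 and PIK3R3 were called, at −0.29, 0.20, −0.27 and −0.32. A p that misses the threshold does not show equal effects.

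The difference itself followed the GC content of genes. Across 7592 members with a GC value (98.9%), Spearman's rho with GC was −0.63 for the difference, 0.07 for the effect in C4-2 and 0.62 for that in 22Rv1. In 5 bins of equal size, from 32.0% to 42.2% GC up to 57.9% to 83.9% GC, the median difference was 0.52, 0.32, −0.01, −0.28 and −0.48. With a GC offset per library it was −0.01, 0.01, −0.02, −0.00 and 0.02. The offset was fitted on the GC content of these same members, so this flat course was set by the adjustment. The slope of the CC-115 libraries of 22Rv1 stood above that of its Control libraries, so that base composition moved with treatment in that line, and its part in the differences was not tested.

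**Figure D5:**
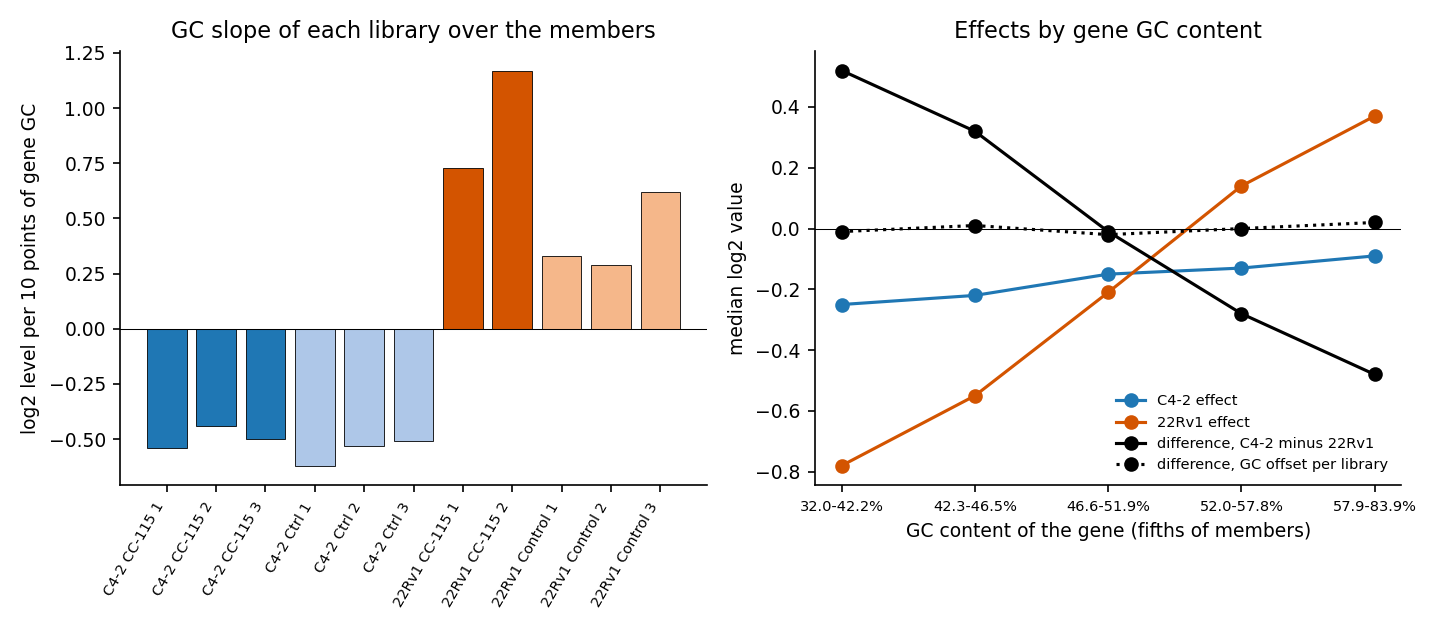
Left, the log2 level per 10 points of gene GC content over the members in each of the 11 libraries, negative in C4-2 and positive in 22Rv1, with the CC-115 libraries of 22Rv1 at 0.73 and 1.17; right, median effects and differences in 5 bins of gene GC content. The difference without adjustment runs from 0.52 in the lowest bin to −0.48 in the highest. The dotted line with a GC offset stays between −0.02 and 0.02, which follows from fitting the offset on the GC content of these members.

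Genes near 0 in a line have no comparable effect there. Untreated 22Rv1 libraries held under 0.5 CPM of 50 genes that were at 10 CPM or more in untreated C4-2, of which 16 rose and 23 fell with CC-115 in C4-2. PDE10A, a cyclic nucleotide phosphodiesterase, had 70, 70.3 and 72.4 CPM in C4-2 CC-115 against 21.7, 20.7 and 19.6 CPM in Ctrl and rose, while SLPI, a protease inhibitor, fell to 3.39, 3.63 and 2.98 CPM with CC-115, against 22.8, 21.8 and 20.5 CPM in Ctrl. Untreated C4-2 libraries likewise lacked 168 genes of 22Rv1, of which 60 rose and 52 fell with CC-115 in 22Rv1. SLFN11, a helicase-like factor tied to sensitivity to DNA damage, fell to 13.4 and 11.1 CPM in 22Rv1 CC-115, against 47.5, 45.2 and 44.1 CPM in Control. The adaptor SHC2 rose there to 124.5 and 175 CPM, against 22.6, 21 and 31.1 CPM in Control. No difference between lines is given for these genes.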

How the data were processed

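Groups were taken from sample titles. The deposited files hold unnormalized read counts by Ensembl identifier, and each line has its own table. Per the submitters' processing notes, the authors aligned reads to hg19 with STAR 2.5.2a, counted with featureCounts 1.5.0-p3 and tested with DESeq2 1.14.1. Per the labels, libraries came from a stranded total RNA kit. For the annotation release, the strand setting and multimapping reads, the settings are not given in the sources used. The strand setting bears on 128 of 207 named members, which overlap another feature.

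The tables were joined by gene identifier. The 11 libraries of the 4 groups were fitted together, with 1 coefficient per group, by edgeR 4.0.16 (limma 3.58.1, R 4.3.3) after filterByExpr and TMM scaling, with robust quasi-likelihood dispersions. P-values were Benjamini-Hochberg adjusted over 22922 genes. A shared estimate of spread was needed because 22Rv1 CC-115 has 2 libraries. Standard errors were the absolute log2 value divided by the square root of F. CPM are TMM-scaled, except those of marker genes. Near 0 means under 0.5 CPM in every untreated library of a line. Chi-square per degree of freedom between replicates was 8.13 to 112, so no library was a duplicate.

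Members, gene lists (29 lists with 800 genes, 618 of them members) and named genes were chosen with earlier results of these data known. Named genes are PRKDC, MTOR, KLK3 and 2 genes not reported here, the 12 highest and 12 lowest called differences among protein-coding members, the 6 widest on each side called in opposite directions, the 6 strongest on each side called alike with no called difference, and, for each list, up to 4 called members in each direction and the strongest without a called difference. For genes near 0 they are the 3 strongest on each side. Other list members and ER genes were named after their values were seen, to describe their list by role.

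Alternatives were median-of-ratios scaling, centring of each line, removal of small and mitochondrial RNA, no filter, a stricter filter (1 CPM in 5 libraries), DESeq2 1.42.0, limma-voom, a fit of all 29 libraries, a replicate block, each library left out, and other thresholds for members. After the data were seen, 3 settings were added: a loess offset of each library on gene GC content (span 0.4), the GC slope of each library as a covariate, and the offset with the replicate block. The fit was tested on simulated data with known changes. Promoters are from RefSeq (GRCh38.p14). Scripts used Python 3.11.15, pandas 2.3.3, numpy 2.4.6 and matplotlib 3.10.9.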

Additional observations from a re-analysis of the deposited data

Results flagged for a closer look

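The effect of CC-115 differed between C4-2 and 22Rv1, by the test of the difference itself, for 3453 members, and by at least 2-fold for 815. Among these, the named members with the widest differences on each side that were called in opposite directions, 12 in all, are listed here. Other named members, such as PDIA4 and MANF, were also called in opposite directions and are not among the 12. HSPA5 (2.82), HSP90B1 (2.79), SEC24D (2.49), NIBAN1 (2.41), SMIM14 (2.39) and TSPYL2 (2.98) rose in C4-2 and fell in 22Rv1. CDT1 (−2.41), FANCG (−2.34), SLC22A3 (−3.73), CA12 (−2.92), ELF3 (−2.41) and CACNB3 (−2.18) fell in C4-2 and rose in 22Rv1. All values are log2 differences, C4-2 minus 22Rv1. Each of the 12 was called in the same direction under both GC adjustments and with each of the 11 libraries left out.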

How the results depend on the processing

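Counts of members are given. Leaving out each library in turn gave 2691 to 4688 differences (1192 to 2445 higher and 1292 to 2243 lower in C4-2), 548 to 1504 of at least 2-fold, 4756 to 5761 changes in C4-2 and 4501 to 5763 in 22Rv1. The highest counts, 2445 higher and 1504 of at least 2-fold, came without 22Rv1 CC-115 replicate 1, which leaves 1 library in that group, assumed to vary like the others. A fit of all 29 libraries gave 940 lower. Differences of at least 2-fold numbered 433 with the GC offset, 532 with the GC slope and 408 with the offset and replicate block, all chosen after the data were seen. The share of differences that were higher in C4-2 was 45.6%, against 52.2% with DESeq2, 52.0% with median-of-ratios scaling, 66.4% with all 29 libraries (1861 higher and 940 lower), 50.6% with no filter, 51.2% with the GC offset and 38.6% with the GC slope. The median difference of all genes tested shifted to 0.14 with all 29 libraries, 0.11 with no filter, −0.11 with the GC slope and 0.12 without 22Rv1 CC-115 replicate 1. Other thresholds for members gave 43.7% to 47.0% of members with a difference.

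Deviations from the group mean correlated between same-numbered libraries with r = 0.51, 0.54 and −0.20 in C4-2 and 0.70 and −0.74 in 22Rv1. Other pairs in C4-2 had r from −0.68 to 0.47. In 22Rv1 the 2 CC-115 libraries mirror each other around their mean, so the values there cannot decide on pairing. Whether same-numbered libraries shared a culture or batch cannot be told from this check. With a replicate block 3925 members differed, 1954 higher and 1971 lower. Of 207 named members, 196 kept their call and direction under the block.

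Named differences turned direction as follows; the cause was not tested. With the GC offset, FARSB was −0.35, EIF4A2 −0.48, BRD2 0.20 and SAT1 −0.29. With the GC slope, FARSB was −0.56, EIF4A2 −0.71, FASN 0.70, SLC38A2 −0.03 and PBK −0.89. With the offset and block, FARSB was −0.29, EIF4A2 −0.43, BRD2 0.21, FASN 0.28, GNMT 0.05, RPS6KB2 0.06 and TSC2 0.22.

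Limits are the 2 libraries of 22Rv1 CC-115, the GC slopes that differ between lines and within 22Rv1, and the lines standing in separate tables. Replicates differed by more than counting error (chi-square per degree of freedom of 8.13 to 112).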

Other observations

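Other genes of the secretory pathway had mostly higher differences in C4-2, with falls in 22Rv1 and mixed changes in C4-2. The lists here were drawn up after the values were seen, so they describe and support nothing. Over all members 20.5% had a higher and 24.5% a lower difference. Of 23 members of ER translocation and signal peptidase, which bring new proteins into the ER, 15 had a higher and 0 a lower difference, with a median of 0.86, and 8 were held under both GC adjustments. The median was 0.41 with the GC offset and 0.31 with the GC slope, under which 11 were higher and 2 lower. In C4-2 5 rose and 3 fell (median −0.07), and in 22Rv1 1 rose and 18 fell (median −0.71). SRPRA, a subunit of the receptor that docks ribosomes, rose in C4-2 at 1.09 and fell in 22Rv1 at −0.50 (difference 1.59 ± 0.12), and the translocon-associated SSR3 differed by 1.50 ± 0.28. Of 25 genes of the COPII and COPI coats, which carry cargo between the ER and the Golgi, 18 had a higher and 0 a lower difference (median 0.71), 16 of them held. In C4-2 12 rose and 4 fell, and in 22Rv1 2 rose and 16 fell. COPB2 changed by 0.47 in C4-2 and −1.42 in 22Rv1 (difference 1.89 ± 0.16), and the cargo receptors LMAN1 and TMED10 differed by 1.13 ± 0.24 and 1.16 ± 0.18. Of 22 genes of N-glycan transfer, which add sugar chains to proteins in the ER, 12 had a higher and 0 a lower difference (median 0.59, and 0.42 and 0.27 under the GC adjustments), 9 of them held. In C4-2 5 rose and 4 fell, and in 22Rv1 3 rose and 13 fell. UGGT1, which checks the folding of glycoproteins, changed by 1.08 in C4-2 and −0.84 in 22Rv1 (difference 1.92 ± 0.13), and STT3B, a catalytic subunit of the transferase, differed by 1.40 ± 0.30.

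Proteasome subunits fell in both lines, 23 of 29 in C4-2 and 21 in 22Rv1, with medians of −0.57 and −0.68 and a median difference of 0.07. Mitochondrial ribosomal proteins fell in 28 of 33 members in C4-2 and 23 in 22Rv1 (medians −0.72 and −0.53), and the difference was lower for 11, of which 9 were held. MRPL37 fell in C4-2 at −0.65 and rose in 22Rv1 at 0.29. Among 25 genes of nucleotide synthesis 20 fell in C4-2 and 18 in 22Rv1, and the difference was lower for 7 and higher for DUT (0.74 ± 0.16). The nucleoside transporter SLC29A1, placed on that list for nucleotide supply, fell further in C4-2, at −2.42 in C4-2 and −0.42 in 22Rv1. Among all members 43.5% fell in C4-2 and 44.9% in 22Rv1, and the difference was higher for 20.5% and lower for 24.5%.

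Differences also moved with the length of a gene. In 5 bins of equal size, the median was −0.33 among members of the shortest span and 0.29 among those of the longest. It was −0.06 and 0.08 with a GC offset per library, and −0.23 and 0.05 with the GC slope.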
